A study of Homo sapiens with 6 samples.

Results

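The genes described here are 35 genes of the human endoplasmic reticulum (ER) folding machinery and the unfolded protein response, out of 60671 gene identifiers counted by RNA-seq. They were listed by symbol for their function, outside the ATF4 arm of the response. No measured value was part of this rule, but earlier results of these data were known when the list was made. All 35 were matched to an Ensembl identifier in the count data. By role they are 10 chaperones and co-chaperones, 2 lectin chaperones, 6 enzymes of disulfide formation, 5 stress sensors and transcription factors, 9 genes of ER-associated degradation and 3 genes of the ER membrane and translocation. The cells were EndoC-βH1, a human β cell line of WT genotype, and every library came from this 1 line. In 3 libraries the cells had been treated with the vehicle DMSO, and in 3 with 1 µM AZD7762, an inhibitor of the kinases CHEK1 and CHEK2. Cells of both groups were starved for 1 h in 0.5 mM glucose and then stimulated for 1 h with 0.5 or 20 mM glucose, with DMSO or AZD7762 present throughout. Which glucose concentration each library received is not given. Both groups had been grown in medium with the reducing agent 2-mercaptoethanol.

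β cells make large amounts of proinsulin, which folds and forms its disulfide bonds in the ER before it is sorted to granules. When unfolded proteins build up in the ER, 3 membrane sensors respond. ERN1 (IRE1α) splices XBP1 mRNA so that it encodes an active transcription factor, ATF6 is cut to release a transcription factor, and EIF2AK3 (PERK) phosphorylates eIF2α, which lowers translation in general and raises that of ATF4. The factors of the first 2 sensors raise the transcription of chaperones, oxidoreductases and degradation genes. Counts per gene hold mRNA levels only, so splicing of XBP1, cleavage of ATF6 and phosphorylation were not measured here.

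Promoter sequence was not part of the list's rule, but the genes were listed for a response that ATF6 and XBP1 drive. ATF6 and XBP1 bind ER stress response elements, and these were searched for on both strands in RefSeq promoter windows (build GRCh38.p14, 250 bases before to 50 bases after a start). The ERSE was searched as CCAAT, 9 bases of any kind, then CCACG. The ERSE-II was searched as ATTGG, 1 base of any kind, then CCACG. The core of the UPRE was searched as TGACGTGG. A window was given for 32 of the 35 genes, and PDIA3, DERL1 and DERL3 had none. An ERSE was found for 8 of the 32 (25.0%), against 25 of 27305 genes with a window (0.0916%). The 8 were HSPA5, HSP90B1, CALR, CANX, PDIA6, CRELD2, ERO1B and XBP1. An ERSE-II was found for 3 (9.38%), namely HERPUD1, SDF2L1 and HYOU1, against 19 of all genes (0.0696%). A UPRE core was found for HYOU1 alone among the 32 (3.12%, against 0.927% of all genes), where it shared bases with an ERSE-II. These are matches of letters and not shown binding sites. Because the list and the motifs both come from the same response, the higher share describes the list and is no independent support for it. For CANX, CRELD2 and ERO1B the match is not printed. For each other gene with an ERSE or ERSE-II a match is printed below, 5′ to 3′ with 5 bases on either side. The capitals mark the fixed letters of the motif.
HSPA5 (chr9:125241386-125241414, minus strand): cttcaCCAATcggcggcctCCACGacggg
XBP1 (chr22:28800598-28800626, minus strand): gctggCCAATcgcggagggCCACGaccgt
CALR (chr19:12938379-12938407, minus strand): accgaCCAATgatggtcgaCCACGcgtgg
HSP90B1 (chr12:103930211-103930239, plus strand): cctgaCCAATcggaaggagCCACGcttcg
PDIA6 (chr2:10812848-10812876, minus strand): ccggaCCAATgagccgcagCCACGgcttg
SDF2L1 (chr22:21642109-21642129, minus strand): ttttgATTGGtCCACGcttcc
HERPUD1 (chr16:56932020-56932040, plus strand): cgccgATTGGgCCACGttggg
HYOU1 (chr11:119057375-119057395, plus strand): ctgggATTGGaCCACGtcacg

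The match in XBP1 began 52 bases before the start of transcription and that in HSPA5 66 bases before it. HSP90B1 held a second ERSE and HYOU1 a second ERSE-II in the same windows. The sensors ERN1, EIF2AK3 and ATF6 had a window without any of the 3 motifs, which says only that these letters were not in it. Coordinates of genes given from here on are in GRCh37, the build of the counts.

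The 6 libraries held between 20486391 and 29402440 counts on genes, so that 3 counts were worth 0.102 to 0.146 CPM (each count divided by its library's scaled total), a limit that covers counting error only. Of all identifiers, 17649 passed the filter on low counts and were tested with edgeR's quasi-likelihood test, and 125 of them (0.708%) were called at an adjusted p under 0.05, with 63 higher and 62 lower in AZD7762. All 16 β cell markers listed were detected, with a summed level of 9201 to 10413 CPM in DMSO and 10012 to 10457 CPM in AZD7762. Mitochondrially encoded genes held 1.57 to 2.13% of the counts in DMSO and 2.26 to 2.63% in AZD7762, so this share did not overlap between the groups. The summed level of the 2 delta cell markers was 219 to 249 CPM in DMSO and 258 to 284 CPM in AZD7762. The 2 went opposite ways, with a log2 fold change of 0.24 (SE 0.06) for SST and -0.19 (SE 0.11) for HHEX. The groups did not overlap for SST and overlapped for HHEX, so the sum follows SST. The summed level of the 3 acinar markers, of which 2 were at 0 in every library, was 21.0 to 22.6 and 24.7 to 27.5 CPM. The other marker lists overlapped between the groups or were near 0. The part of these shifts in the values below was not tested. The study's methods speak of independent replicates for its in vitro experiments in general, and the labels do not say what separates these libraries. The p-values measure the spread between them.

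Several of the ER folding genes were among the most abundant genes of these cells. The 35 genes held 1.23% ± 0.0428 of all counts in DMSO and 1.25% ± 0.0478 in AZD7762 (SD, n = 3). Levels of different genes were compared per length, as FPKM (CPM divided by the length of the merged exons in kilobases). CALR (calreticulin), a lectin chaperone that binds calcium, had the highest level in DMSO with 377 ± 20.4 FPKM (SD, n = 3), above 99.8% of the genes tested. HSPA5 (BiP), the main Hsp70 of the ER, followed with 159 ± 5.34 FPKM. XBP1 had 146 ± 8.71 FPKM, HSP90B1 (GRP94, the Hsp90 of the ER) 141 ± 6.66 FPKM and PDIA4, a protein disulfide isomerase, 137 ± 2.88 FPKM. Neighbours among these last 3 did not differ beyond their spread. The sensors stood at the other end of the order, with ATF6 at 4.80 ± 0.0658 FPKM, EIF2AK3 at 1.49 ± 0.0687 FPKM and ERN1 at 0.979 ± 0.0857 FPKM. With these merged exon lengths the median over all genes tested was 3.84 FPKM, so ERN1 and EIF2AK3 lay below it, and XBP1 and HSPA5 far above it. DERL3, of the derlin family of ER-associated degradation, was lowest with 0.510 ± 0.113 FPKM, but 77% of its exon length overlaps SMARCB1 on the opposite strand, so its counts are uncertain.

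The order at the top depended on the length used. With the exon length of the canonical transcript, an alternative chosen after the data had been seen, HSP90B1 came first with 666 FPKM, before CALR with 556 and CANX with 329, and HSPA5 had 264 FPKM. The 3 lowest genes were the same with both lengths, at 6.82 FPKM for EIF2AK3, 2.37 for ERN1 and 0.625 for DERL3. The median over all genes tested is not given here for this length, so their place beside it holds for merged exons only.

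**Figure D1:**
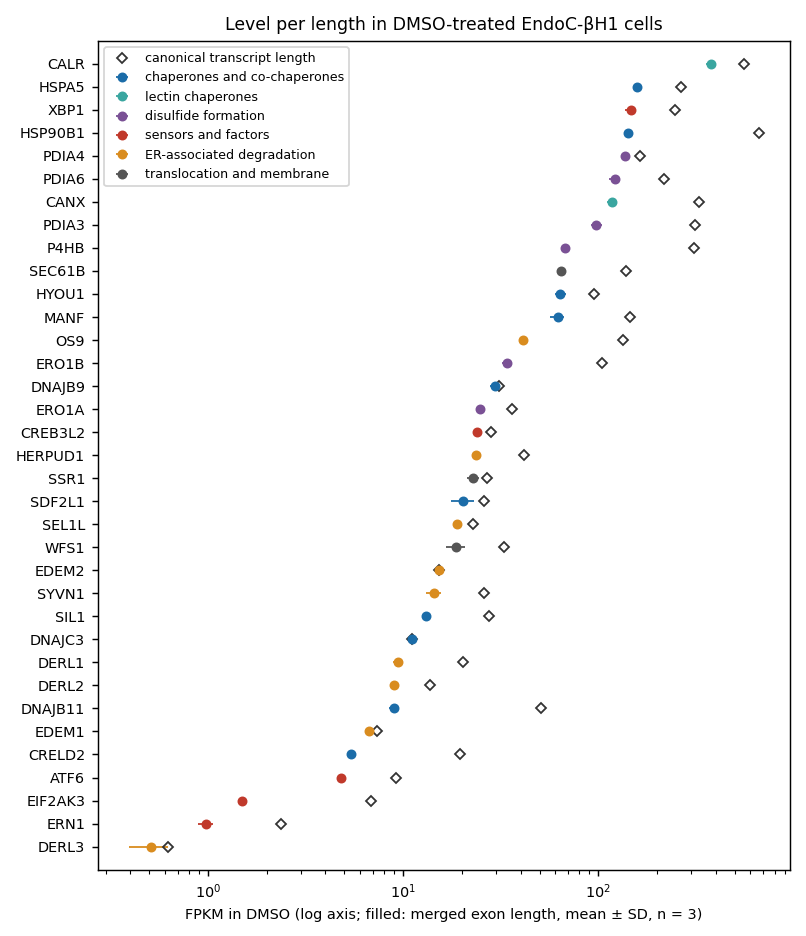
Level of each of the 35 genes in DMSO-treated cells in FPKM on a log axis. Filled points are the mean with merged exon lengths, coloured by role, bars are the SD over 3 libraries, and open diamonds use the canonical transcript. Lectin chaperones, major chaperones and disulfide isomerases lie at the top with XBP1, and ATF6, EIF2AK3, ERN1 and DERL3 at the bottom.

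Levels were also read by promoter class. The 11 genes with an ERSE or ERSE-II had a median of 118 FPKM in DMSO (range 5.38 to 377), and the 21 genes with a window but neither motif had a median of 18.7 FPKM (range 0.979 to 137). This is a description of the ranges, which overlap, and was not tested.

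The comparison of AZD7762 with DMSO addressed which genes differed after this short exposure to the inhibitor. With treatment alone in the model and no GC content or length trends taken out, none of the 35 genes was called by edgeR in either direction. Of all genes tested, 0.357% were called higher and 0.351% lower. None of the 35 was called by the DESeq2 Wald test or by edgeR's exact test. The smallest adjusted p was 0.176, for EIF2AK3. An unadjusted p under 0.05 was found for 7 of the 35 (20.0%), where the share over all genes tested was 9.68%. Of these, 5 were higher in AZD7762 (SIL1, XBP1, DNAJB9, SDF2L1 and WFS1), against 4.43% of all genes, and 2 were lower (EIF2AK3 and EDEM1), against 5.25%. Without DMSO replicate 2, or without AZD7762 replicate 1, 2 genes in place of 5 were higher at this p. The share of all genes at this p, in either direction, was then 6.61% and 5.87%. The fitted log2 fold changes lay between -0.27 (EIF2AK3) and 0.30 (SDF2L1), and for 23 of the 35 genes the size was under 0.1. Their median was 0.05, beside 0.01 for all genes tested. The value was above 0 for 25 genes (71.4%, against 52.4% of all genes tested) and below 0 for 10. With library totals in place of TMM factors it was above 0 for 21 genes. The median of all genes tested then moved from 0.01 to -0.03. In bulk RNA, fewer cells expressing a gene and less RNA per cell cannot be told apart.

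The groups did not overlap for 8 of the 35 genes (22.9%), where this held for 15.0% of all genes tested. In 6 of them the 3 AZD7762 libraries lay above the 3 DMSO libraries (XBP1, PDIA4, DNAJB9, SDF2L1, SIL1 and ATF6), and in 2 they lay below (EDEM1 and EIF2AK3). The shares over all genes were 6.79% and 8.25%. The genes were measured closely, with a median standard error of 0.07 against 0.10 over all genes tested. The 95% intervals reached from -0.50 (DERL3) to 0.54 (SDF2L1) on the log2 scale.

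**Figure D2:**
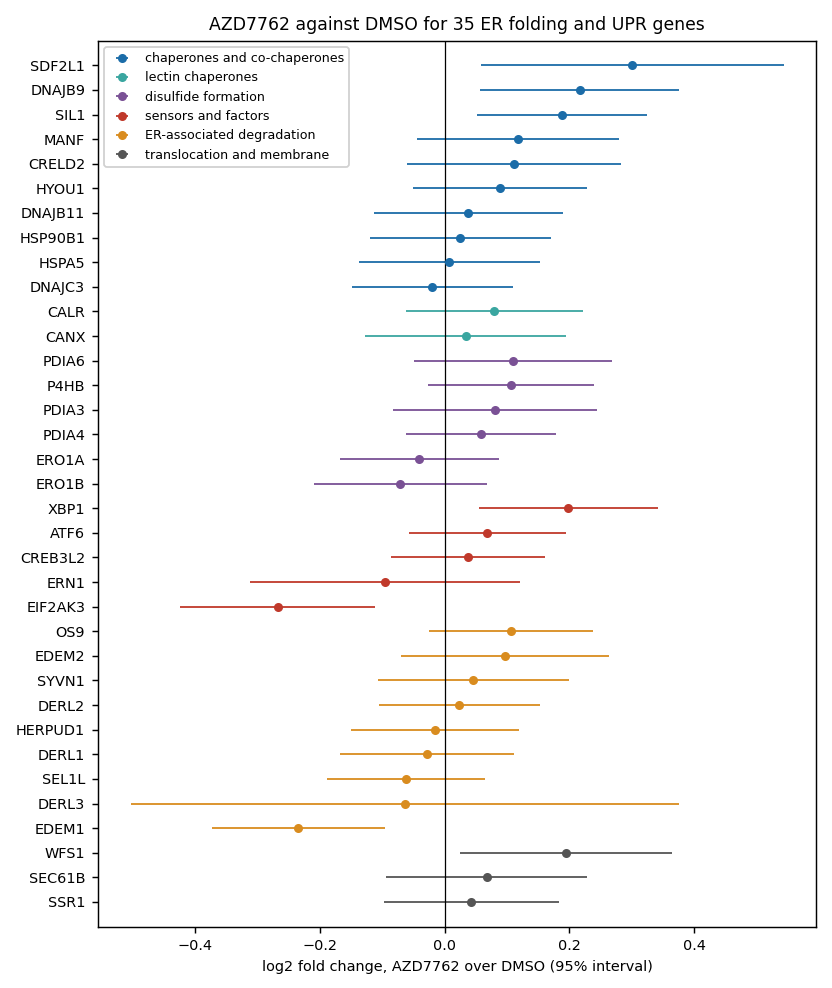
Log2 fold change of AZD7762 over DMSO for each of the 35 genes, grouped and coloured by role. Points are edgeR's fitted values and bars their 95% intervals. The intervals of 5 genes lie above 0 and those of EIF2AK3 and EDEM1 below it, and none of the 35 passed the adjusted threshold.

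The sensors and factors gave values on both sides of 0. EIF2AK3 (ENSG00000172071, chr2:88856259-88991036, minus strand) had 31.6, 31.9 and 29.3 normalized CPM in DMSO replicates 1, 2 and 3, and 26.8, 25.6 and 24.7 CPM in AZD7762 replicates 1, 2 and 3. Every AZD7762 library lay below every DMSO library. EIF2AK3 had a log2 fold change of -0.27 (SE 0.07), a difference of -16.9% with a 95% interval from -25.5% to -7.41%, and edgeR's adjusted p was 0.176. XBP1 (ENSG00000100219, chr22:29190543-29196585, minus strand) had 471, 441 and 418 CPM in DMSO and 501, 539 and 487 CPM in AZD7762. All 3 AZD7762 libraries were above the highest DMSO library, and AZD7762 replicate 2 was the highest. XBP1 differed by 0.20 on the log2 scale (SE 0.07), or 14.7% with an interval from 3.86% to 26.8%, and edgeR's adjusted p was 0.324.

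ERN1, the sensor that splices XBP1 mRNA, had 19.4, 16.9 and 20.0 CPM in DMSO and 15.4, 18.7 and 18.5 CPM in AZD7762. The groups overlapped, and AZD7762 replicate 1 was the lowest library. The log2 fold change was -0.10 (SE 0.10), with an interval from -19.4% to 8.78%. ATF6 had 68.8, 69.1 and 67.4 CPM in DMSO and 70.0, 75.0 and 70.4 CPM in AZD7762. The groups did not overlap, but the gap between them was small beside the distance of AZD7762 replicate 2 from the other two, and the log2 fold change was 0.07 (SE 0.06) with edgeR's adjusted p at 0.761. CREB3L2, a factor of the ATF6 kind that is cut out of the ER membrane, had a log2 fold change of 0.04 (SE 0.06). The summed level of these 5 genes was 800.3, 773 and 742 CPM in DMSO and 819, 882 and 819 CPM in AZD7762, and XBP1 made up most of it.

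Among the chaperones, 9 of 10 had a log2 fold change above 0, with a median of 0.10, and 3 had an unadjusted p under 0.05. HSPA5 (ENSG00000044574, chr9:127997132-128003661, minus strand), which carries the ERSE printed above and is widely used as a marker of the response, had 1071, 1037 and 1002 CPM in DMSO and 1083, 1077 and 967 CPM in AZD7762. The groups overlapped, with AZD7762 replicate 3 below all DMSO libraries. Its log2 fold change was 0.01 (SE 0.07), with a 95% interval from -9.10% to 11.2%, and it turned to -0.03 with library totals in place of TMM factors. HSP90B1, with 2 ERSE matches, had a log2 fold change of 0.03 (SE 0.07), which became -0.01 with library totals.

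The 3 chaperone genes with the smallest p were co-chaperones and partners of HSPA5. SIL1, a nucleotide exchange factor for HSPA5 (ENSG00000120725, chr5:138282413-138629246, minus strand), had 52.2, 50.2 and 54.5 CPM in DMSO and 62.3, 58.8 and 57.6 CPM in AZD7762. The groups did not overlap. SIL1 had a log2 fold change of 0.19 (SE 0.06), or 13.9% with an interval from 3.65% to 25.2%, and edgeR's adjusted p was 0.324. DNAJB9 (ERdj4), a J-domain protein that works with HSPA5 (ENSG00000128590, chr7:108210311-108215294, plus strand), had 78.9, 74.9 and 70.7 CPM in DMSO and 85.1, 95.8 and 80.3 CPM in AZD7762. All AZD7762 libraries were above all DMSO libraries, and AZD7762 replicate 2 stood highest. For DNAJB9 the log2 fold change was 0.22 (SE 0.07), or 16.2% with an interval from 3.99% to 29.8%, and edgeR's adjusted p was 0.339. With trends of GC content and length taken out of each library, DNAJB9 passed the threshold at 0.26 on the log2 scale (edgeR's adjusted p 0.0344), beside a range of 0.00665 to 0.734 over all settings. DNAJB9 was not the only member to pass it in an alternative fit, and the others are named in the closing section.

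SDF2L1 (ENSG00000128228, chr22:21996591-21998588, plus strand), which forms a complex with J-domain proteins and carries an ERSE-II, had 23.2, 18.1 and 23.1 CPM in DMSO and 29.7, 23.3 and 26.2 CPM in AZD7762. The lowest AZD7762 library, replicate 2, lay just above the highest DMSO library. The log2 fold change of 0.30 (SE 0.11) was the largest among the 35 genes in the fit used here, with an interval from 4.09% to 45.8%, and edgeR's adjusted p was 0.396. MANF, a secreted ER protein that binds HSPA5, had 141, 135 and 121 CPM in DMSO and 154, 144 and 132 CPM in AZD7762, and the groups overlapped. Its log2 fold change was 0.12 (SE 0.07). The log2 fold changes of the remaining chaperone genes were 0.11 (SE 0.08) for CRELD2, 0.09 (SE 0.06) for HYOU1, the large Hsp70-like exchange factor, 0.04 (SE 0.07) for DNAJB11 and -0.02 (SE 0.06) for DNAJC3, the last 2 being J-domain proteins.

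**Figure D3:**
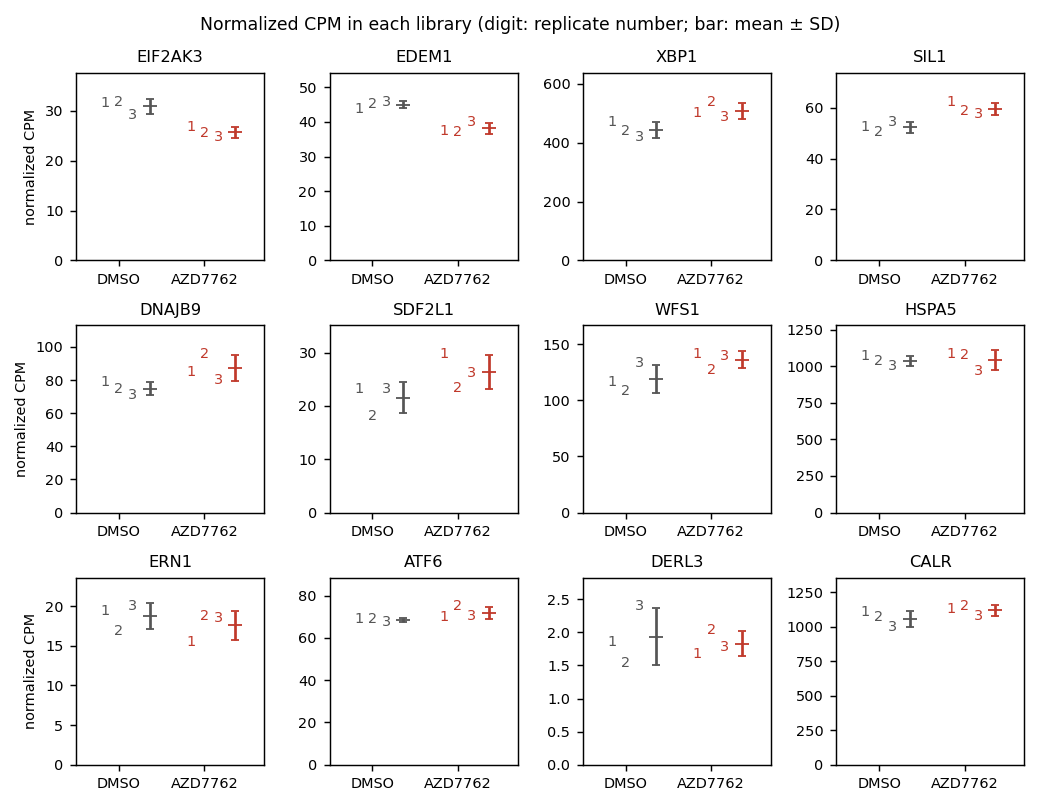
Normalized CPM of 12 of the genes in each of the 6 libraries, on axes that start at 0. Digits give the replicate number, and the bars beside them the mean ± SD over 3 libraries. EIF2AK3 and EDEM1 lie lower in every AZD7762 library, XBP1, SIL1, DNAJB9, SDF2L1 and, by a small margin, ATF6 lie higher, and the groups overlap for the other 5 genes.

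The lectin chaperones CALR and CANX, which hold glycoproteins during folding, had log2 fold changes of 0.08 (SE 0.07) and 0.03 (SE 0.07), of which that of CANX became -0.0015 with library totals. CALR (ENSG00000179218, chr19:13049392-13055303, plus strand) had 1108, 1068 and 995 CPM in DMSO and 1129, 1148 and 1075 CPM in AZD7762. The groups overlapped, and the 95% interval was -4.24% to 16.6%.

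In disulfide formation, none of the 6 genes had an unadjusted p under 0.05. The 4 isomerases had log2 fold changes above 0, and both oxidases that recharge them below 0. P4HB (PDI), the most studied isomerase of the ER, had 773, 731 and 761 CPM in DMSO and 836, 829.8 and 773 CPM in AZD7762. AZD7762 replicate 3 was within the range of DMSO and the other two above it. The log2 fold change was 0.11 (SE 0.06), with an interval from -1.87% to 18.1%. PDIA6, of which 25% of the exon length overlaps ATP6V1C2 on the opposite strand, had a log2 fold change of 0.11 (SE 0.07), PDIA3 of 0.08 (SE 0.08) and PDIA4 of 0.06 (SE 0.06). The oxidases ERO1A and ERO1B, the second of which is the form enriched in the pancreas, had -0.04 (SE 0.06) and -0.07 (SE 0.06).

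The 9 genes of ER-associated degradation, which return misfolded proteins to the cytosol for the proteasome, centred on a log2 fold change of -0.02 (median), and 4 of them lay above 0. EDEM1 (ENSG00000134109, chr3:5229331-5261643, plus strand), which trims mannose from misfolded glycoproteins, had 43.8, 45.1 and 45.8 CPM in DMSO and 37.5, 37.1 and 39.9 CPM in AZD7762. Every AZD7762 library lay below every DMSO library, and the replicates of each group were close together. EDEM1 had a log2 fold change of -0.23 (SE 0.06), or -15.0% with an interval from -22.8% to -6.42%, and edgeR's adjusted p was 0.184. Its relative EDEM2 had a log2 fold change of 0.10 (SE 0.08). OS9, a lectin that hands glycoproteins to the degradation complex, had 365, 366 and 343 CPM in DMSO and 398, 393 and 364 CPM in AZD7762. The groups overlapped through AZD7762 replicate 3. OS9 had a log2 fold change of 0.11 (SE 0.06), and over 15% of its exon length overlaps other genes on either strand.

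The ubiquitin ligase complex of the same pathway gave log2 fold changes of 0.05 (SE 0.07) for the ligase SYVN1 (HRD1), -0.06 (SE 0.06) for its partner SEL1L and -0.02 (SE 0.06) for HERPUD1, which carries the ERSE-II printed above. The derlins DERL1 and DERL2 had -0.03 (SE 0.06) and 0.02 (SE 0.06), the latter -0.01 with library totals. DERL3 had 1.86, 1.54 and 2.40 CPM in DMSO and 1.67, 2.04 and 1.78 CPM in AZD7762. The groups overlapped, and its standard error of 0.20 around a log2 fold change of -0.06 was the widest of the 35 genes.

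Of the membrane genes, WFS1 (ENSG00000109501, chr4:6271576-6304992, plus strand), which encodes wolframin, the ER membrane protein affected in Wolfram syndrome with diabetes, had 116, 108 and 133 CPM in DMSO and 141, 127 and 139.7 CPM in AZD7762. DMSO replicate 3 lay above AZD7762 replicate 2, so the groups overlapped. WFS1 had a log2 fold change of 0.19 (SE 0.08), or 14.5% with an interval from 1.77% to 28.7%, and edgeR's adjusted p was 0.439. SEC61B, a subunit of the translocation channel, and SSR1, of the translocon-associated complex, had 0.07 (SE 0.07) and 0.04 (SE 0.06).

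The summed levels of the roles showed how much of the spread was between replicates. All 35 genes summed to 12583, 12344 and 11613 CPM in DMSO and 12763, 13131 and 12053 CPM in AZD7762. The ranges overlapped, with replicate 3 the lowest of each group. Replicate 3 of DMSO was the lowest DMSO library for 23 of the 35 genes, against 39.9% of all genes tested, and replicate 3 of AZD7762 the lowest of its group for 21, against 35%. DMSO replicate 3 also had the lowest total of all libraries, and the part of depth in these levels was not tested. The sums of the sensors and of the membrane genes did not overlap between the groups, and those of the chaperones, lectins, disulfide and degradation genes did. No test was made of these sums.

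**Figure D4:**
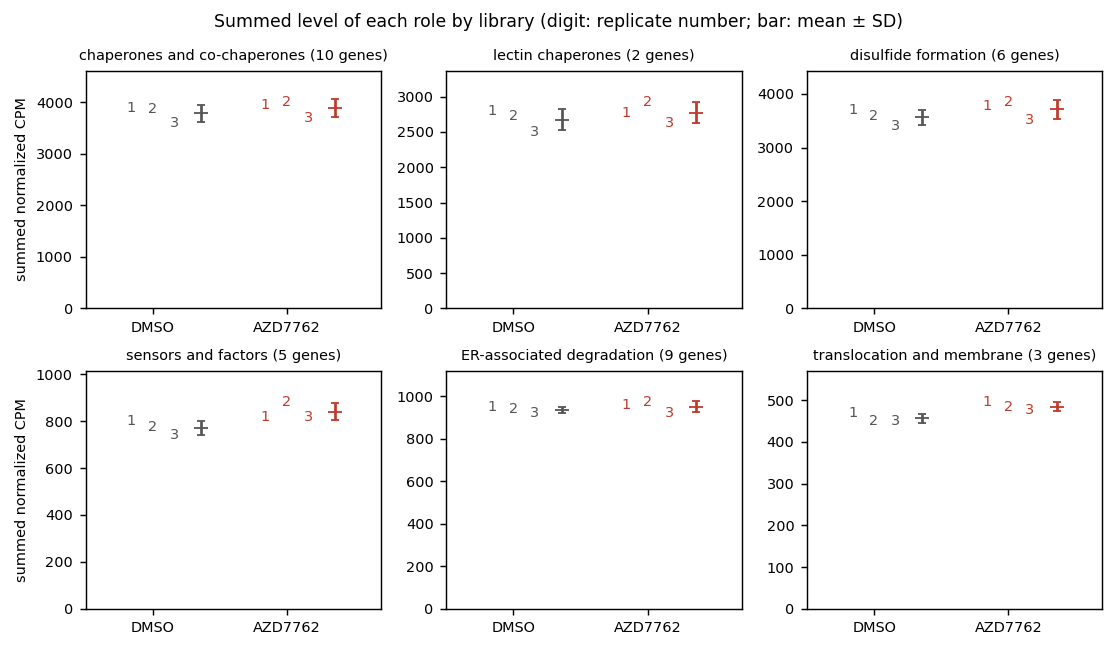
Summed normalized CPM of the genes of each role in each library, on axes that start at 0. Digits give the replicate number, and bars the mean ± SD over 3 libraries. Replicate 3 is the lowest of its group for every role except the sensors in AZD7762, where replicates 1 and 3 are level, and of these 6 sums only the sums of the sensors and the membrane genes do not overlap between the groups.

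Log2 fold changes of the 11 genes with an ERSE or ERSE-II had a median of 0.08 (range -0.07 to 0.30), and 9 were above 0. The 21 genes with a window and neither motif had a median of 0.05 (range -0.27 to 0.22), with 15 above 0. The ranges overlapped, and genes with the ERSE itself included HSPA5 and HSP90B1, with values near 0, as well as XBP1 with 0.20.

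A list of 70 other genes of ER translocation, glycosylation, redox, degradation and trafficking was read beside the 35. Of these, 69 were tested, FKBP2 having been removed by the filter, and none was called by edgeR, the DESeq2 Wald test or edgeR's exact test. An unadjusted p under 0.05 was found for 8 (11.6%, against 9.68% of all genes tested), 6 of them higher and 2 lower. The median log2 fold change was 0.05, as for the 35 genes, and 48 of the 69 values were above 0. By role, all 11 genes of glycosylation and glycan trimming had values above 0, with a median of 0.09, and the 16 other degradation factors had a median of -0.02, with 7 above 0. DAD1, a subunit of the oligosaccharyltransferase, had the smallest p of the 69. It had 119.5, 110.05 and 101 CPM in DMSO and 137, 132 and 120.4 CPM in AZD7762, so the groups did not overlap. Its log2 fold change was 0.23 (SE 0.07), with an adjusted p of 0.283 from edgeR.

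The ATF4 arm lies downstream of EIF2AK3 and was outside the list. Of its 18 genes 17 were tested, and DDIT3 (CHOP), a transcription factor of this arm, was the 1 gene called. DDIT3 had 29.0, 28.9 and 31.0 CPM in DMSO and 14, 14.7 and 15.9 CPM in AZD7762. The AZD7762 libraries lay far below the DMSO libraries, and DDIT3 fell by 1.00 on the log2 scale (SE 0.08) with an adjusted p of 2.1e-05 from edgeR. Of its exon length, 31.6% overlaps other annotation on the opposite strand and 8.03% on the same strand, so part of its counts is uncertain. ATF4 itself had 137, 146 and 151 CPM in DMSO and 143, 134 and 147 CPM in AZD7762, which overlapped, and a log2 fold change of -0.03 (SE 0.06). PPP1R15A (GADD34), which directs dephosphorylation of eIF2α, had 70.55, 69.8 and 81.1 CPM in DMSO and 62.4, 69.4 and 63.7 CPM in AZD7762. AZD7762 replicate 2 lay just below the lowest DMSO library. PPP1R15A had a log2 fold change of -0.18 (SE 0.07), with an adjusted p of 0.455 from edgeR. In this arm 5 of the 17 genes had an unadjusted p under 0.05 and all 5 were lower, where 5.25% of all genes were. The median log2 fold change was -0.08 in the ATF4 arm and 0.05 for the 35 genes. The difference between the lists was not tested.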

How the data were processed

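The authors trimmed their reads (the submitters' processing notes name cutadapt 1.18 and FastQC 0.10.1), used GRCh37 and counted reads on genes with HTSeq-count. The aligner and the strand setting are not given in the sources used here. Libraries were made with 1 of 2 kits, only 1 of them stranded, and which kit served which library is not stated, so reads of genes that overlap on opposite strands cannot be told apart. The deposited values are these raw counts, whole numbers without normalization for 60671 Ensembl identifiers. Symbols, positions and exons came from GENCODE release 44 on GRCh37, which lists 58646 of them. The 2025 others held 0.153% of the counts.

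edgeR 4.0.16 in R 4.3.3 scaled the counts by TMM factors (0.983 to 1.02), filtered genes with filterByExpr and compared the groups by its two-sided quasi-likelihood test on treatment alone. DESeq2 1.42.0 served as an alternative. P-values were adjusted by Benjamini-Hochberg over the 17649 genes tested, with a threshold of 0.05. Standard errors are |log2 fold change| over the root of the F statistic. CPM and FPKM were computed here from counts and TMM-scaled totals. The members, lists and tests were chosen with earlier results of these data known. Values in every library are given for the 10 members with the smallest p, for HSPA5, XBP1, ERN1, ATF6 and EIF2AK3, and for the 3 highest and 3 lowest per length in DMSO, and from other lists for genes called, DDIT3, ATF4 and PPP1R15A. DAD1 was named after its values were seen. The marker lists were of beta, alpha, delta, PP, acinar, ductal, fibroblast, endothelial and immune cells. Alternatives were other scaling, filters, tests, the replicate number as a term, removal of trends with GC content and length, and each library left out. A planned count of C-terminal retention signals in the proteins was not made here.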

Additional observations from a re-analysis of the deposited data

How the results depend on the processing

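No member was called under other scaling, other filters on low counts, the DESeq2 Wald test, edgeR's exact test, or when any of the 6 libraries was left out. The median log2 fold change of the members stayed above 0 throughout, between 0.01 with library totals and 0.07 after removal of trends with GC content and length, and between 0.03 and 0.08 with 1 library left out. The labels do not say that replicate numbers pair the samples, and they were not taken to: over all genes, deviations of same-numbered libraries correlated at 0.0533, 0.124 and 0.210 (pairs 1, 2 and 3), not all over 0.1, and DMSO replicate 1 correlated best with AZD7762 replicate 2 (0.175). Over the 35 members alone, the same-numbered pairs correlated at 0.203, 0.173 and 0.494, each over 0.1, and DMSO replicate 1 again best with AZD7762 replicate 2 (0.226), so a pairing is not settled. With the replicate block, 378 genes were called in all (2.14% of those tested) and 4 members, 2 higher (XBP1, SDF2L1) and 2 lower (EIF2AK3, EDEM1). After removal of the trends, 227 genes (1.29%) and 1 member (DNAJB9, higher) were called. With both changes 575 genes (3.26%) were called, with 3 members higher (DNAJB9, XBP1, WFS1) and 1 lower (EDEM1). Members higher at an unadjusted p under 0.05 went from 5 to 9 with the replicate block, to 11 with both changes, and to 2 to 7 with 1 library left out, the 2 being without DMSO replicate 2 or without AZD7762 replicate 1, while 2 remained the count of lower ones. The share of all genes at this p, in either direction, rose too, from 9.68% to 16.1% with the block and 17.7% with both changes. With 1 library left out this share lay between 5.87% and 12.4%. Other ER genes called higher were 1 with the replicate block and 3 with both changes, where 181 and 306 of all genes were called higher. All genes called numbered 125 in the analysis reported, 330 when low counts were not filtered, 254 by edgeR's exact test, and 77 (without AZD7762 replicate 1) to 168 (without DMSO replicate 3) with 1 library left out. Library totals moved the median of all genes to -0.03 and the split of calls from 63 higher and 62 lower to 59 and 90. The cause of these changes was not tested.

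Only members whose log2 fold change was under 0.1 in size reversed. With library totals the log2 fold changes became -0.0015 for CANX, -0.0117 for DERL2, -0.0100 for HSP90B1 and -0.0279 for HSPA5. After removal of the GC content and length trends, without and with the replicate block, they became 0.0121 and 0.0130 for DERL1, 0.0324 and 0.0325 for DNAJC3, 0.0162 and 0.0164 for ERO1A, and 0.0212 and 0.0210 for HERPUD1. With 1 library left out the values ranged from -0.0276 to 0.0806 for CANX, -0.0602 to 0.0120 for DERL1, -0.0020 to 0.0375 for DERL2, -0.21 to 0.0983 for DERL3, -0.0118 to 0.0976 for DNAJB11, -0.0492 to 0.0020 for DNAJC3, -0.0766 to 0.0141 for HERPUD1, -0.0096 to 0.0536 for HSP90B1, -0.0291 to 0.0601 for HSPA5, -0.0196 to 0.107 for SEC61B, -0.0099 to 0.0696 for SSR1 and -0.0026 to 0.122 for SYVN1. Leaving out the members of which over 10% of the exon length overlaps another gene, an alternative chosen after seeing the data, left the median at 0.05. Depth limits DERL3, near 2 CPM, the most.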
